A study of Rattus norvegicus with 16 samples.

Results

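Smooth muscle contractile genes encode the actin and myosin filaments of the muscle cells of gut wall and vessels, and the proteins that regulate and anchor those filaments. The set has 10 members, Acta2, Actg2, Myh11, Des, Cnn1, Tagln, Lmod1, Synpo2, Myl9 and Mylk, chosen by name. A probe was assigned to a member where the RefSeq transcript it is annotated to maps to that rat gene symbol. Probes were found for 9 of the 10 members and none for Synpo2, an actin-binding protein of muscle. The 9 measured members have 13 of the 30367 gene probes of the array, which cover 15159 named genes. Actg2, Myh11, Lmod1 and Mylk have 2 probes each, and the probe with the highest mean over all arrays stands for the gene unless the other probe is named.

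The study profiled total RNA from normal distal colon of 16 male rats on single-colour Agilent arrays, 1 array per rat. All rats were (ACIxF344)F1 animals, either wild type or Pirc/+, that is, heterozygous for the Pirc allele of the tumor suppressor gene Apc, which gives rise to colonic tumors. The treated rats drank dextran sodium sulfate (DSS), which injures the colonic epithelium and inflames the colon, at 4% between days 40 and 47 of age and again between days 54 and 61. Every rat was 97 days old when the tissue was taken, 36 days after the last DSS. The 4 groups of 4 rats were untreated wild type (rats 13, 17, 21 and 25), untreated Pirc (rats 11, 15, 19 and 23), DSS-treated wild type (rats 14, 18, 22 and 26) and DSS-treated Pirc (rats 12, 16, 20 and 24), and values below follow this order of rats. The labels do not say which layers of the colon wall the tissue held.

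In smooth muscle, calmodulin carrying calcium activates myosin light chain kinase (Mylk), which phosphorylates the regulatory light chain (Myl9) so that smooth muscle myosin (Myh11) pulls on actin filaments (Acta2 and Actg2). Transgelin, calponin and leiomodin bind these actin filaments, and desmin forms intermediate filaments that tie them together and to the membrane. In the colon such cells form the thin muscle layer of the mucosa and the thick outer muscle coat, and Acta2 is also made by vascular muscle and myofibroblasts.

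Levels are the log2 of the background-subtracted signal minus the log2 of the 75th percentile of the same array, so that 0 is the signal at that percentile. The signals of different probes depend on how strongly each probe binds, so a summed signal or a brightest gene given below, the one with the highest mean log2 level over the 16 rats, describes signal and does not rank genes by amount of RNA. The scanner software called the probes of Acta2, Actg2, Myh11, Des, Myl9 and Mylk well above background on all 16 arrays, so 6 members were measured throughout. It did so for Tagln on 10 arrays, for Cnn1 on 2 and for Lmod1 on 0. Differences were tested with limma over all 30367 probes, and a difference is said to pass at an adjusted p of 0.05 or less. The scanner software called 71.1% to 80.3% of spots well above background, depending on the array, and the number of arrays limits the precision. All 11 measured markers of colon epithelium, Cdx2, Epcam and Krt20 among them, were well above background on all 16 arrays.

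Rats 16, 25 and 26 stood apart in the smooth muscle genes, each in a different group. They held the 3 highest of the 16 levels in 6 members (Acta2, Actg2, Myh11, Cnn1, Tagln and Myl9), and each of them was the highest of its own group in 8 of the 9 measured members. These counts include Lmod1, which was not well above background in any rat, and Cnn1, which was not so in rat 16. The mean over the 9 members, each centred on its own mean over the 16 rats, was -0.64, -0.64, -0.26 and 1.86 in untreated wild type rats and -0.42, -0.82, -0.89 and -0.78 in untreated Pirc rats. It was 0.37, 0.16, -0.40 and 2.45 in DSS-treated wild type rats and -0.31, 1.18, -0.75 and -0.10 in DSS-treated Pirc rats. Rats 25, 26 and 16 are the values of 1.86, 2.45 and 1.18, and no other rat exceeded 0.37. Within groups the members varied more than most probes, with a median SD of 1.05 over the 9 members and 0.34 over all probes. Only 0.132% of all probes had a larger SD within groups than Actg2, 0.211% a larger SD than Tagln and 1.29% a larger SD than Myh11, against 36.7% for Acta2 and 52.9% for Mylk. Whether such a rat had more smooth muscle cells in the sample or more RNA per cell cannot be told apart in bulk tissue. Rat 16 was also high in lists of other cells, given below. Its array had the lowest 75th percentile of the 16, 875. The lowest level called well above background was highest on that array, at -6.22. The part of these in the member levels of rat 16 was not tested. Results that rest on these rats are given with and without them, a comparison chosen after seeing the data. The rats were picked for being high in these same members. Leaving them out therefore narrows the spread within groups for the members in which they are extreme. The adjusted p of such runs describe how far a result depends on these rats and cannot serve as tests of the members.

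**Figure D1:**
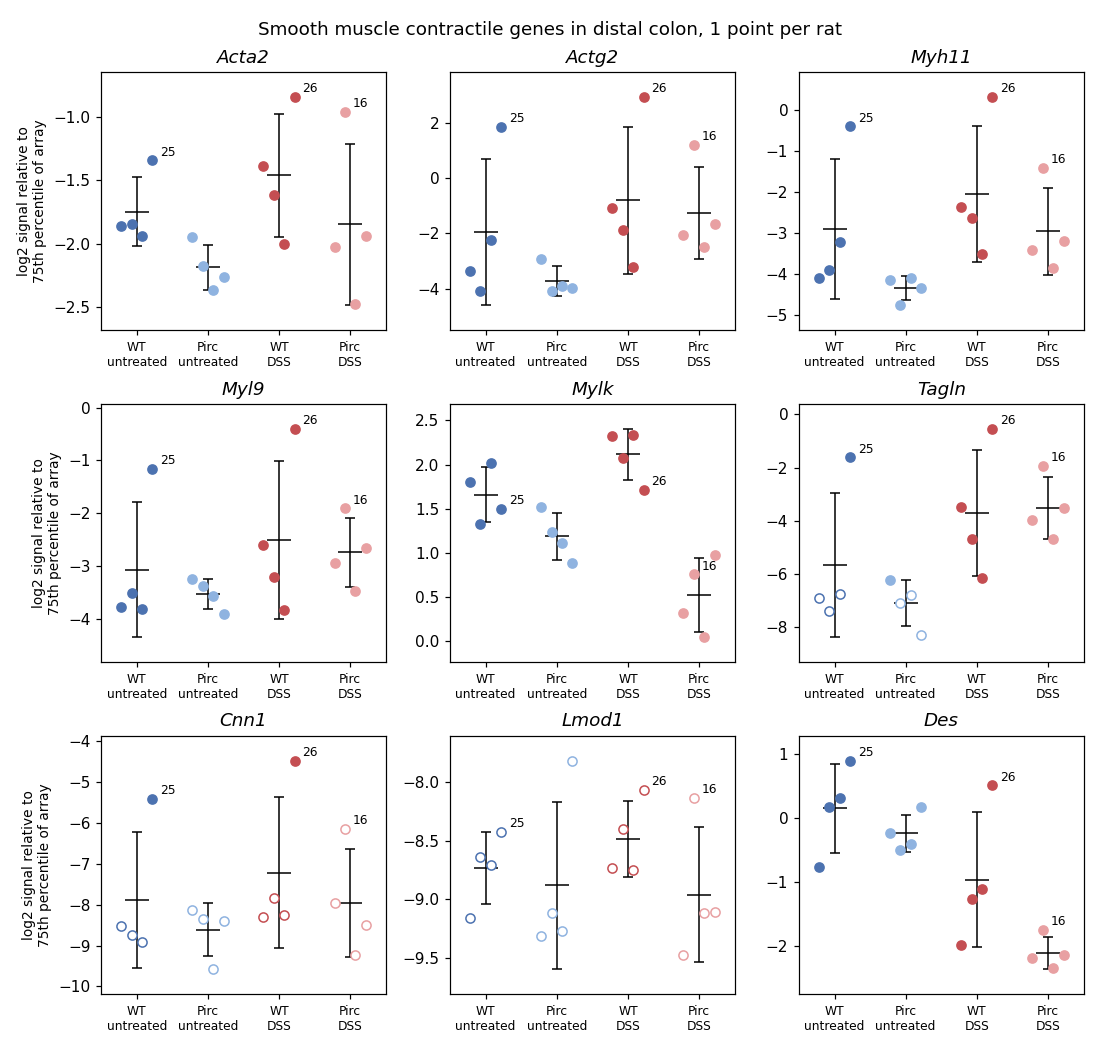
Log2 level relative to the 75th percentile of the array for each of the 9 measured members (1 panel each), with 1 point per rat in the 4 groups and the mean and SD of each group of 4; open points are not well above background, and rats 16, 25 and 26 are numbered. The numbered rats lie at the top of their groups in most panels, as in Actg2, where rats 25 and 26 reach 1.85 and 2.93 while the other 3 rats of each of their groups lie between -4.09 and -1.07.

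Of the 9 measured members, Des fell with DSS over both genotypes, and Mylk was lower in Pirc than in wild type rats. Tagln also passed with DSS over both genotypes, as higher, but this call held in only 10 of 28 alternatives, and 6 of the 8 untreated rats were not well above background. With DSS over both genotypes, 2 of 9 members passed (22.2%), where 17.2% of all probes passed. In Pirc rats alone, DSS changed 1 of 9 members (11.1%), Des, where 14.7% of all probes passed. In wild type rats alone, 0 of 9 passed by limma and 1 had an unadjusted p under 0.05, where 3.84% of all probes passed and 5106 probes had such an unadjusted p. These counts are near the share of all probes that passed in each comparison.

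Between the genotypes, 1 of 9 members, Mylk, was lower in Pirc rats among the DSS-treated animals, where 18.2% of all probes passed, and it was so again over both treatments, where 17.5% passed. Among untreated rats 0 of 9 members passed by limma and 0 had an unadjusted p under 0.05, where 0% of all probes passed and 3103 probes had an unadjusted p under 0.05. For the difference between the DSS effects of the genotypes, 0 of 9 members passed by limma and 1, Mylk, had an unadjusted p under 0.05, where 0.0428% of all probes (13) passed and 3234 probes had an unadjusted p under 0.05. These comparisons share samples: each untreated group and each DSS-treated group serves in more than 1 of them.

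Groups can also be compared by whether their 4 and 4 values overlap. With DSS in Pirc rats, 4 of 9 members (Actg2, Myh11, Des and Tagln) had groups that did not overlap, as did 16.9% of all probes. In wild type rats this held for 0 of 9 members and 12.4% of all probes. Between untreated Pirc and wild type rats it held for 2 of 9 members (Acta2 and Myh11) and 8.72% of all probes, but the groups were only 0.0081 apart in Acta2 and 0.00056 in Myh11 on the log2 scale, and among DSS-treated rats for 1 of 9 (Mylk) and 18.8% of all probes.

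Leaving out Cnn1 and Lmod1, whose values were near background, the median difference over 7 members with DSS was 0.78 in Pirc rats and 0.56 in wild type rats on the log2 scale, and 0.04 and 0.09 over all probes. Without rat 16 the Pirc median was 0.50. In wild type rats it was 0.07 without rat 26, 1.20 without rat 25 and 0.53 without both. For Pirc against wild type the median over these members was -0.47 in untreated rats and -0.45 in DSS-treated rats, against -0.02 and -0.11 over all probes. Without rat 25 the untreated median was -0.31, and it was -0.06 on the slide of rat 16 and -1.25 on the other. Among DSS-treated rats it was -0.13 without rat 26, -1.26 without rat 16 and -0.48 without rats 16, 25 and 26, and its sign differed between the slides, with 0.09 on the slide of rat 16 and -1.51 on the other. The sizes of these medians thus moved with single rats, and the choice to leave out these 2 members was made after seeing the data.

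**Figure D2:**
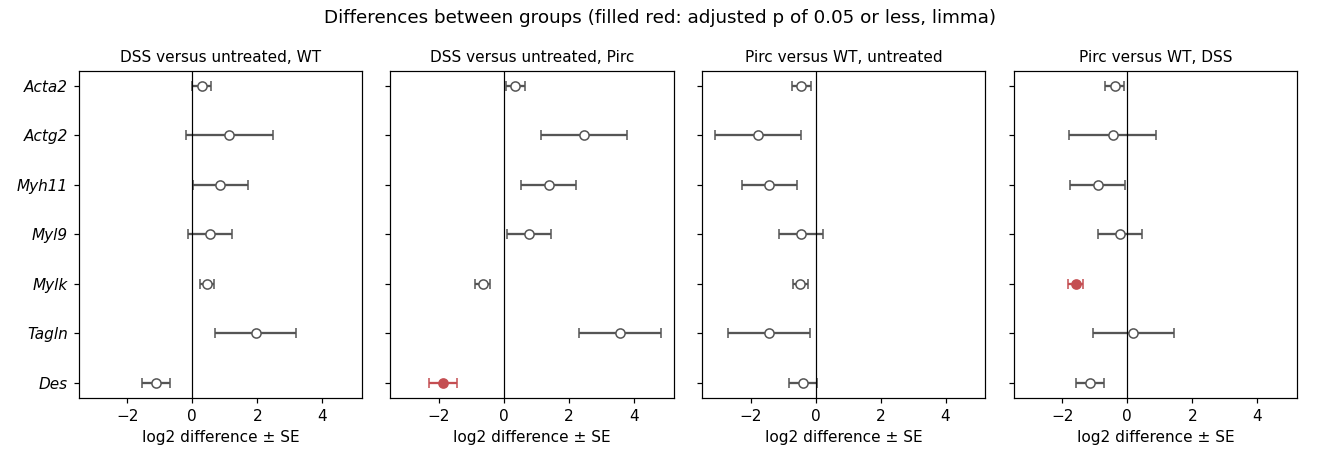
Log2 difference (horizontal axis) of 7 members (vertical axis), Cnn1 and Lmod1 being left out as too near background, in 4 comparisons of 4 rats with 4 rats (1 panel each), as the estimate and its standard error from limma; filled red points passed at an adjusted p of 0.05 or less. Des passed with DSS in Pirc rats at -1.87 and Mylk passed between DSS-treated Pirc and wild type rats at -1.59, and no other member shown passed in these 4 panels.

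The actins of the contractile filament are Actg2, the gamma actin typical of visceral muscle, and Acta2, the alpha actin of vascular and other smooth muscle. The Actg2 level was -3.34, -4.09, -2.22 and 1.85 in untreated wild type rats, -2.92, -4.09, -3.89 and -3.98 in untreated Pirc rats, -1.07, -1.87, -3.22 and 2.93 in DSS-treated wild type rats and -2.06, 1.20, -2.50 and -1.67 in DSS-treated Pirc rats. All 4 DSS-treated Pirc rats lay above all 4 untreated Pirc rats, while in wild type rats the groups overlapped and rats 25 and 26 lay far above the others. Group means with SD (n = 4) were -1.95 ± 2.65, -3.72 ± 0.54, -0.81 ± 2.65 and -1.26 ± 1.67. With DSS over both genotypes the difference in Actg2 was 1.80 on the log2 scale (SE 0.94), a factor of 3.48, and did not pass, with an adjusted p of 0.238. Without rat 26 alone it was 1.18 with an adjusted p of 0.401. Without rats 25 and 26 it was 1.81 with an adjusted p of 0.0458, and without rat 16 as well it was 1.40 with an adjusted p of 0.0297, and over all alternatives the adjusted p ranged from 0.0297 to 0.899. In Pirc rats alone the Actg2 difference was 2.46 (SE 1.33, adjusted p 0.262), or 2.46 with an adjusted p of 0.0418 when rats 25 and 26 were left out of the fit and 1.64 with an adjusted p of 0.0616 when rat 16 was left out too. The estimates were 3.08 on the slide with rat 16 and 1.85 on the other, and the other Actg2 probe gave 3.46 with an adjusted p of 0.146.

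The direction of the Actg2 difference between genotypes depended on the rats. Over both treatments it was -1.11 for Pirc against wild type (SE 0.94, adjusted p 0.438), and 0.15 without rats 25 and 26. It was 0.62 within the slide that holds rat 16 and -2.85 within the slide that holds rats 25 and 26.

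The Acta2 level was -1.86, -1.84, -1.94 and -1.34 in untreated wild type rats, -1.95, -2.18, -2.37 and -2.26 in untreated Pirc rats, -1.38, -1.62, -2.0 and -0.84 in DSS-treated wild type rats and -2.03, -0.96, -2.48 and -1.94 in DSS-treated Pirc rats. The 4 untreated Pirc rats were below the 4 untreated wild type rats, though only just at -1.95 against -1.94, and the DSS-treated groups overlapped with each other and with the untreated ones. Over both treatments Acta2 differed by -0.41 between Pirc and wild type rats (SE 0.21, adjusted p 0.189). Leaving out rat 16 gave -0.56 with an adjusted p of 0.0282, and leaving out rats 16, 25 and 26 gave -0.39 with an adjusted p of 0.0514. The adjusted p ranged from 0.0282 to 0.838 over all alternatives. The DSS difference over both genotypes was 0.31 (SE 0.21, adjusted p 0.374), and 0.16 without rat 16.

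Myh11 encodes the heavy chain of smooth muscle myosin, the motor of the thick filament. Its level was -4.11, -3.91, -3.23 and -0.41 in untreated wild type rats, -4.17, -4.77, -4.11 and -4.35 in untreated Pirc rats, -2.37, -2.64, -3.52 and 0.31 in DSS-treated wild type rats and -3.42, -1.42, -3.85 and -3.20 in DSS-treated Pirc rats. The untreated Pirc rats were the lowest group and did not overlap with the DSS-treated Pirc rats, while the wild type groups overlapped and rats 25 and 26 were far above the other rats of their groups. The DSS difference over both genotypes was 1.12 (SE 0.60, adjusted p 0.251), or 1.14 with an adjusted p of 0.0393 without rats 25 and 26 and 0.88 with an adjusted p of 0.0193 without rats 16, 25 and 26, in a range of 0.0193 to 0.949 over all alternatives. Without rat 26 alone it was 0.72. Between genotypes over both treatments it was -1.18 (SE 0.60, adjusted p 0.201), and -0.36 without rats 25 and 26.

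Myl9 encodes the regulatory light chain of myosin, and Mylk the kinase that phosphorylates it. The Myl9 level was -3.78, -3.51, -3.83 and -1.16 in untreated wild type rats, -3.25, -3.38, -3.58 and -3.90 in untreated Pirc rats, -2.59, -3.21, -3.84 and -0.40 in DSS-treated wild type rats and -2.94, -1.91, -3.48 and -2.65 in DSS-treated Pirc rats. Apart from rats 16, 25 and 26, every rat lay between -3.90 and -2.59, and the groups overlapped. The Myl9 difference with DSS over both genotypes was 0.67 (SE 0.48, adjusted p 0.423), and 0.32 without rat 26.

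The Mylk level was 1.80, 1.32, 2.01 and 1.5 in untreated wild type rats, 1.51, 1.23, 1.11 and 0.88 in untreated Pirc rats, 2.33, 2.08, 2.34 and 1.72 in DSS-treated wild type rats and 0.32, 0.76, 0.05 and 0.98 in DSS-treated Pirc rats. All 4 DSS-treated Pirc rats were below all 4 DSS-treated wild type rats, and rats 25 and 26 were not high in this gene: rat 26 was the lowest of its group. Group means with SD (n = 4) were 1.66 ± 0.31, 1.19 ± 0.26, 2.11 ± 0.29 and 0.52 ± 0.42. Among DSS-treated rats Mylk was lower in Pirc than in wild type rats by a factor of 3.01, a log2 difference of -1.59 (SE 0.23, adjusted p 0.000837). The difference was -1.72 without rats 25 and 26 and -1.80 without rats 16, 25 and 26, with adjusted p of 0.00180 and 0.00243. It was -1.67 and -1.51 within the slides, where neither passed on its own with 2 rats per group (adjusted p 0.0522 and 0.167), and it had an adjusted p of 0.00124 with slide as a block. Over all alternatives the adjusted p ran from 0.000401 to 0.167. The other Mylk probe was lower too, by -1.41 on the log2 scale with an adjusted p of 0.0103, but there the groups overlapped, with rat 16 at -2.52 above rat 26 at -2.75.

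Over both treatments Mylk was lower in Pirc rats by -1.03 on the log2 scale (SE 0.16, adjusted p 0.00156), and 7 of 8 Pirc rats were below all 8 wild type rats. In untreated rats the difference was -0.47 with an adjusted p of 0.50 and overlapping groups. The DSS effect on Mylk was -0.66 in Pirc rats (SE 0.23, adjusted p 0.0648) and 0.46 in wild type rats (SE 0.23, adjusted p 0.335). In Pirc rats it was -0.81 with an adjusted p of 0.0251 without rat 24 and -0.76 with an adjusted p of 0.0461 without rat 23. The difference between these DSS effects was -1.12 (SE 0.32), with an unadjusted p of 0.00339 and an adjusted p of 0.253, so that it did not pass. Between the slides it was -1.48 and -0.76.

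Tagln, Cnn1 and Lmod1 encode the actin-binding proteins transgelin, calponin and leiomodin. The Tagln level was -6.91, -7.38, -6.74 and -1.61 in untreated wild type rats, -6.22, -7.10, -6.78 and -8.28 in untreated Pirc rats, -3.47, -4.68, -6.15 and -0.54 in DSS-treated wild type rats and -3.95, -1.94, -4.70 and -3.50 in DSS-treated Pirc rats. It was well above background in all 8 DSS-treated rats, but among the untreated ones in rat 25 and rat 11 only, so that the untreated values are near the limit of the signal. Apart from rat 25 every untreated rat was below every DSS-treated rat, though only just at -6.22 in rat 11 against -6.15 in rat 22. In Pirc rats the groups did not overlap. Group means with SD (n = 4) were -5.66 ± 2.71, -7.10 ± 0.87, -3.71 ± 2.38 and -3.52 ± 1.16.

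Tagln rose by 2.76 on the log2 scale with DSS over both genotypes (SE 0.89, adjusted p 0.0441). This call was narrow. It was lost with slide as a block (adjusted p 0.0518), with quantile normalization (difference 2.62, adjusted p 0.0509), with normexp run on the median foreground signal, which changes both the signal used and its background correction (0.97, adjusted p 0.204), with all dim values set to a common floor (2.03, adjusted p 0.152), on the slide of rats 25 and 26 alone (adjusted p 0.654), and without any single rat of 11, 12, 13, 14, 15, 16, 17, 18, 19, 21, 23, 24 and 26, where the adjusted p lay between 0.0531 and 0.0914. Without rats 25 and 26 the difference was 2.91 with an adjusted p of 0.00153, and without rats 16, 25 and 26 it was 2.64 with an adjusted p of 0.00190. It was 3.39 and 2.13 within the slides. In Pirc rats alone the Tagln difference was 3.58 (SE 1.25, adjusted p 0.0717), and with rats 25 and 26 left out of the fit the same 3.58 had an adjusted p of 0.00298, in a range of 0.00298 to 0.580 over all alternatives. In wild type rats it was 1.95 (SE 1.25, adjusted p 0.50), with 0.89 without rat 26 and 3.30 without rat 25. The lowest Tagln difference over all alternatives was 1.27 in Pirc rats and 0.68 in wild type rats.

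Cnn1 was well above background in rats 25 and 26 alone. Its level was -8.51, -8.74, -8.91 and -5.40 in untreated wild type rats and -8.31, -7.83, -8.25 and -4.47 in DSS-treated wild type rats. Pirc rats had -8.14, -8.35, -9.57 and -8.39 untreated and -7.95, -6.14, -9.23 and -8.49 after DSS, of which rat 16 was the highest. Lmod1, which nucleates actin filaments, ranged from -9.48 to -7.82 over the 16 rats on its brighter probe and from -9.87 to -7.51 on the other. Since most or all rats were not well above background, no fold change is given for Cnn1 or Lmod1.

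Des encodes desmin, the intermediate filament protein of muscle. The Des level was -0.78, 0.16, 0.31 and 0.89 in untreated wild type rats, -0.24, -0.50, -0.41 and 0.16 in untreated Pirc rats, -1.99, -1.27, -1.11 and 0.51 in DSS-treated wild type rats and -2.20, -1.75, -2.35 and -2.15 in DSS-treated Pirc rats. Of the 8 DSS-treated rats, 7 were below all 8 untreated rats, and the exception was rat 26 with 0.51. Rats 25, 26 and 16 were again the highest of their own groups, but rat 16 stayed below every untreated rat. Group means with SD (n = 4) were 0.15 ± 0.69, -0.25 ± 0.29, -0.97 ± 1.05 and -2.11 ± 0.25.

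Des fell by 1.49 on the log2 scale with DSS over both genotypes, a factor of 2.81 (SE 0.31, adjusted p 0.00349). The difference was -1.61 without rats 25 and 26 and -1.67 without rats 16, 25 and 26, with adjusted p of 0.000214 and 0.000344. It was -1.46 and -1.51 within the slides, and the adjusted p was 0.00214 with slide as a block and ranged from 0.000145 to 0.123 over all alternatives, the highest being that of 1 slide alone. In Pirc rats Des fell by 1.87 (SE 0.43, adjusted p 0.00964), by a factor of 3.64, and all 4 DSS-treated rats were below the 4 untreated ones. Within the slides the Pirc difference was -1.61 and -2.12, with adjusted p of 0.0660 and 0.140 from 2 rats per group.

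In wild type rats the Des difference with DSS was -1.11 (SE 0.43, adjusted p 0.191). Without rat 26 it was -1.60 with an adjusted p of 0.0120, and without rats 25 and 26 it was -1.36 with an adjusted p of 0.0292, against a highest value of 0.992 over all alternatives. Among DSS-treated rats the difference in Des between Pirc and wild type was -1.15 (adjusted p 0.0808). It was -0.65 without rat 26 and -1.49 without rat 14, where the adjusted p was 0.0341. The DSS effects of the genotypes differed by -0.75 (SE 0.61, adjusted p 0.700), so that the fall in Pirc rats was not shown to differ from that in wild type rats. Without rat 26 this difference was -0.26, and without rat 13 it was -0.44.

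With DSS over both genotypes the estimated differences of Acta2, Actg2, Myh11, Myl9 and Tagln were above 0 and that of Des was below 0, as processed here and under every alternative run, although Des and Tagln alone passed as processed here. Quantile normalization moved the median of all probes with DSS over both genotypes from 0.06 to -0.06, and with it Tagln no longer passed (adjusted p 0.0509).

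A further 106 genes of smooth muscle were listed by function, of which 91 were measured. The list of contraction control genes is part of these counts but is not given by itself below. With DSS in Pirc rats 17 of the 91 rose and 7 fell, and in wild type rats 9 rose and 0 fell. Over both genotypes 23 rose and 12 fell with DSS. Between genotypes, 4 were higher and 13 lower in DSS-treated Pirc than in wild type rats, and 2 were higher and 14 lower over both treatments. Among untreated rats and for the difference of DSS effects, 0 of 91 passed by limma. The share of all probes that passed in either direction, against which these counts and those of the lists below are to be read, was 14.7% with DSS in Pirc rats, 3.84% in wild type rats, 17.2% over both genotypes, 18.2% between DSS-treated genotypes and 17.5% over both treatments. The median difference with DSS over both genotypes was 0.10 over the 91 genes and 0.06 over all probes.

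Among thin filament and actin-binding genes, 6 of 14 rose and 1 fell with DSS in Pirc rats. The gene that fell was Fhl1, a LIM domain protein of muscle, whose level was 3.42, 3.44, 3.0 and 2.47 in untreated and 1.11, 1.62, 0.28 and 1.61 in DSS-treated Pirc rats. The 2 groups did not overlap, and the difference was -1.93 (SE 0.30, adjusted p 0.000779). Among DSS-treated rats 2 of 14 genes of this list were higher and 2 lower in Pirc than in wild type rats, and Fhl1 was 1 of the lower ones, by -2.07 (adjusted p 0.000961).

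Among calcium and ion channels, 3 of 16 rose with DSS in Pirc rats and 1 in wild type rats, where the gap junction protein Gja1 rose by 3.39 (SE 0.54, adjusted p 0.00471), or by 1.64 with normexp. In Pirc rats the Gja1 level was -5.75 to -5.06 untreated and -2.34 to -1.04 after DSS, without overlap. Among DSS-treated rats 1 of 16 was higher and 3 were lower in Pirc than in wild type rats, among the latter Atp2b1, a calcium pump of the plasma membrane, by -1.14 (SE 0.21, adjusted p 0.00326).

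Among receptors and cyclic GMP genes, 3 of 14 rose and 3 fell with DSS in Pirc rats, and 3 rose and 0 fell in wild type rats. The endothelin receptors Ednra and Ednrb were among those that rose in wild type rats, by 2.83 and 2.64, with adjusted p of 0.00392 and 0.00402. The groups did not overlap in either gene, but Ednra was well above background on 8 and Ednrb on 12 of the 16 arrays, so that the sizes rest in part on values near background: with normexp they were 0.59 and 0.79, and with the common floor Ednra no longer passed (adjusted p 0.181). Over both treatments 1 of 14 was higher and 2 were lower in Pirc rats. The higher one was Ednrb, by 0.95 with an adjusted p of 0.0351 and overlapping groups, a call that held in 14 of 28 alternatives, where the lowest difference was 0.26.

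Among genes of the cytoskeleton and membrane anchor, 6 of 19 rose and 5 fell with DSS over both genotypes. Speg, a kinase of striated and smooth muscle that was well above background on 13 arrays, fell by 1.62 (SE 0.23, adjusted p 0.000204), or by 0.62 with normexp. All 8 DSS-treated rats were below all 8 untreated rats, though only just at -5.37 in rat 26 against -5.36 in rat 19. The sarcoglycan Sgce and the small heat shock protein Hspb8 fell by 1.0 and 0.99, with adjusted p of 0.0360 and 0.0121, Hspb8 by 0.56 with normexp. The Sgce call held in 13 of 28 alternatives, with an adjusted p of up to 0.251, and 1 of the 8 DSS-treated rats lay below all untreated rats. Of the transcription control genes, 1 of 11 fell and 0 rose with DSS in Pirc rats. Myocd, the coactivator that drives smooth muscle genes, was well above background on all 16 arrays with levels from -5.56 to -4.80, while Barx1, Hand1 and Hand2 were so on 0 arrays.

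Markers of other cells moved with DSS beside these genes. The fibroblast and matrix list had 10 of 10 genes higher with DSS over both genotypes and 8 and 5 of 10 in Pirc and wild type rats. Without rats 16, 25 and 26 it had 10 of 10 over both genotypes, but 4 and 7 of 10 in Pirc and wild type rats. Between genotypes over both treatments 1 of 10 was higher and 1 lower in Pirc rats. Fbln1 was lower by -0.85 (adjusted p 0.00207), or by -0.38 with normexp. Fap was higher by 1.26 (adjusted p 0.0481, well above background on 6 arrays), but this call was lost in most alternatives: it held in 8 of 28, with differences of 0.17 to 1.98 and an adjusted p of up to 0.726. The mean of the list, centred like that of the members, was -1.17, -1.20, -1.19 and -0.77 in untreated wild type rats, -1.10, -0.97, -0.60 and -0.49 in untreated Pirc rats, 2.03, 1.13, -0.37 and 0.01 in DSS-treated wild type rats and 0.90, 2.0, 0.69 and 1.10 in DSS-treated Pirc rats. All 8 DSS-treated rats were above all 8 untreated rats. Its signal summed over genes, in multiples of the 75th percentile of the array, was 1.41 to 1.92 and 1.58 to 2.72 in the untreated groups and 2.65 to 14.6 and 5.53 to 14.9 in the DSS-treated groups, and Col1a2 was its brightest gene. Over the members this sum was 4.12 to 10.2 and 3.33 to 4.28 in untreated wild type and Pirc rats and 5.55 to 15.6 and 1.79 to 5.72 in the DSS-treated ones, with Mylk the brightest on the mean but Actg2 above it in rats 16, 25 and 26.

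The pericyte and vascular muscle list had 7 of 9 genes higher with DSS over both genotypes. Its summed signal was 0.198 to 0.298 and 0.251 to 0.305 in untreated wild type and Pirc rats and 0.381 to 0.644 and 0.538 to 0.693 after DSS, and Notch3 was its brightest gene. Between genotypes 1 of 9 was higher and 0 were lower in Pirc rats after DSS, and 2 were higher and 1 lower over both treatments. The higher ones were Mcam, by 1.58 after DSS (adjusted p 0.0409, a call held in 20 of 29 alternatives) and by 1.47 over both treatments (adjusted p 0.0116), and Rgs4, by 0.95 over both treatments (adjusted p 0.0246, held in 22 of 28). With normexp the Mcam differences were 0.97 and 0.68 and that of Rgs4 was 0.40, and Rgs4 differed by 0.29 on the slide of rat 16 alone. Of the endothelial markers 3 of 5 rose with DSS over both genotypes, with sums of 0.302 to 0.585 over the untreated rats and 0.535 to 1.05 over the treated ones. Pecam1 was the brightest endothelial gene, and Tek was well above background on 0 arrays. Of the leukocyte markers 4 of 5 rose with DSS over both genotypes, with sums of 2.04 to 3.46 in untreated and 4.92 to 18.6 in treated rats and Cd74 the brightest.

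Squamous epithelium markers rose most. All 4 measured genes rose with DSS in Pirc rats, Krt13 by 10.52, Sprr3 by 7.31, Krt14 by 5.84 and Krt5 by 5.05, and 2 of 4 rose in wild type rats, among them Sprr3 by 4.64 (adjusted p 0.0389). This wild type call held in 14 of 29 alternatives, with an adjusted p of up to 0.982. After DSS Krt13 was higher in Pirc than in wild type rats by 5.34 (adjusted p 0.0406), with overlapping groups. It was 3.03 without rat 26, and the call held in 14 of 29 alternatives. The centred mean of this list was 0.31, 2.07, 5.01 and -3.18 in DSS-treated wild type rats, 3.36, 4.14, 5.57 and 5.54 in DSS-treated Pirc rats and between -3.28 and -1.94 in the untreated rats. Krt13 was well above background on 10 arrays, so that its size rests on values near background in most untreated rats. Rat 26 thus had squamous markers at the level of untreated rats, while its mean over the smooth muscle members was the highest of the 16. The summed signal was 0.114 to 0.241 over the untreated rats, 0.129 to 29.8 in DSS-treated wild type rats and 10.8 to 54.0 in DSS-treated Pirc rats. Krt14 was the brightest gene on the mean over all rats, but Krt13 and Sprr3 were above it in all 4 DSS-treated Pirc rats.

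Colon epithelium markers summed to 433 to 554 and 376 to 519 in untreated wild type and Pirc rats and to 490 to 588 and 393 to 464 in the treated ones, with Krt19 the brightest. With DSS in Pirc rats 2 of 11 fell, among them the chloride exchanger Slc26a3 by 1.72 (SE 0.32, adjusted p 0.00268), and among DSS-treated rats 5 of 11 were lower in Pirc than in wild type rats, Slc26a3 by -2.25 (adjusted p 0.000932). Mylk differed between these DSS-treated groups too, as did 18.2% of all probes, and a relation to the epithelial markers was not tested.

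Neurons and glia of the nerve plexus and pacemaker cells lie with the outer muscle coat. Of 11 measured enteric neuron genes, 10 are given here. Of these 10 genes, 2 rose and 1 fell with DSS in Pirc rats, and 0 passed in wild type rats. Among DSS-treated rats 1 of the 10 was higher and 1 lower in Pirc than in wild type rats. Over all 11 measured genes, 1 was higher and 2 were lower there. Ret, a receptor kinase of these neurons, fell with DSS in Pirc rats by 1.26 (SE 0.29, adjusted p 0.00844) and was lower by 1.26 in DSS-treated Pirc than in wild type rats (adjusted p 0.00873), while Uchl1 was higher there by 1.79 (adjusted p 0.00921). With normexp the Ret differences were -0.58 and -0.49 and that of Uchl1 was 0.77. The sum over these 10 genes was 0.139 to 0.221 over untreated and 0.164 to 0.279 over treated rats, with Ret the brightest, and Nos1 and Prph were well above background on 0 arrays. Of 5 enteric glia genes 0 passed with DSS in either genotype, with sums of 0.0888 to 0.193 over the 16 rats, Sox10 the brightest and S100b well above background on 0 arrays. Of 4 genes of interstitial cells of Cajal 2 rose and 1 fell with DSS over both genotypes, with sums of 9.40 to 16.3 over untreated and 3.80 to 13.9 over treated rats and Ano1 the brightest. Among DSS-treated rats 1 of these 4 was higher and 1 lower in Pirc than in wild type rats, and the higher one was their receptor Kit, by 0.95 (SE 0.26, adjusted p 0.0221, held in 23 of 29 alternatives), or by 0.54 with normexp.

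Of 11 skeletal muscle genes 3 rose and 1 fell with DSS over both genotypes, with sums of 0.682 to 1.24 over the 16 rats and Acta1 the brightest, and the defining genes Myh4 and Myod1 were well above background on 0 arrays. Of 7 cardiac genes 1 rose and 1 fell, with sums of 1.25 to 3.64 and Actc1 the brightest, and Myh7 and Tnni3 were well above background on 0 arrays. Of 3 mesothelium genes 1 rose, with sums of 0.0708 to 0.453 and Upk1b the brightest.

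Rats 25, 26 and 16 were not the highest rats in all of these lists. Ranked from the highest of the 16 rats, rats 25, 26 and 16 were in places 3, 2 and 1 for the cytoskeleton and membrane anchor list and in places 6, 2 and 1 for the thin filament list. They were in places 11, 7 and 2 for fibroblast and matrix, 10, 8 and 3 for pericyte and vascular muscle, 8, 7 and 1 for endothelium, 14, 9 and 5 for interstitial cells of Cajal and 10, 7 and 1 for enteric glia. For colon epithelium they were in places 6, 1 and 4. Rat 16 was high in lists of unlike cells, in place 2 for leukocyte, 3 for skeletal muscle and 4 for mesothelium and squamous epithelium. In no list given here was rat 16 below place 5. Over all probes 14 of the 16 arrays were nearest to an array from the same group. The exceptions were rat 26 and rat 23, an untreated Pirc rat with low member levels, and both were nearest to rat 25. The part of these cell types in the results for the members was not tested.

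**Figure D3:**
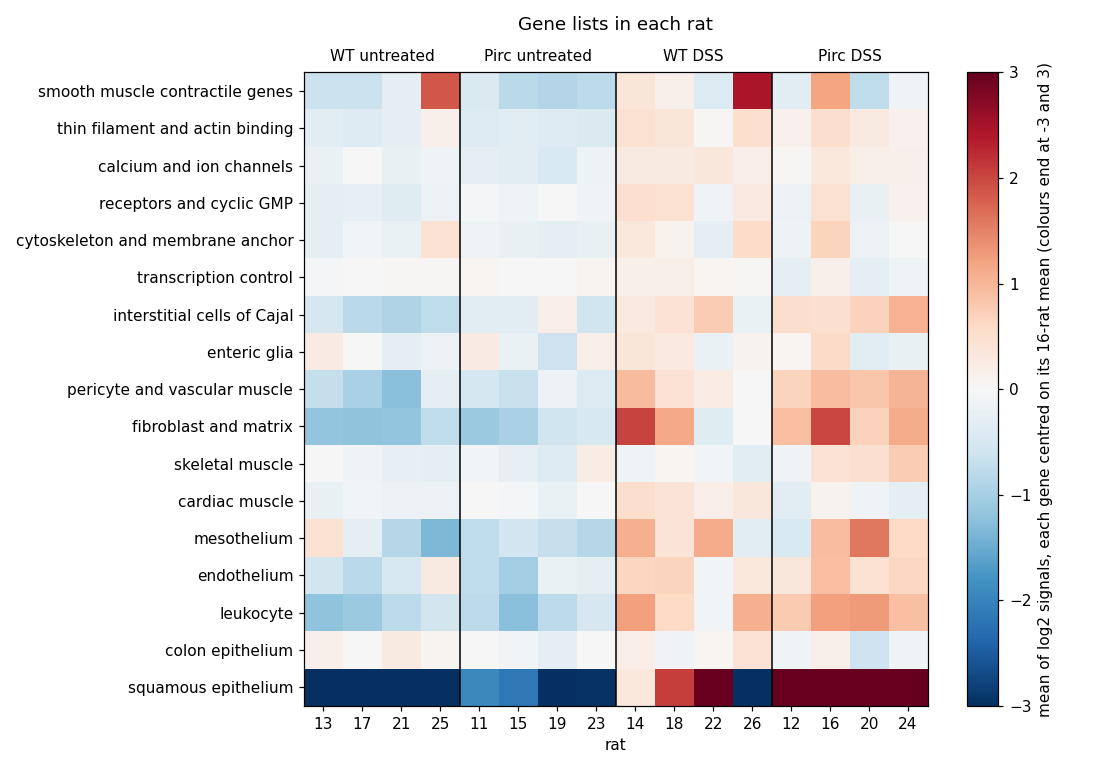
Mean log2 level of lists of genes (1 row each), each gene centred on its own mean over the 16 rats (colour scale, ending at -3 and 3), for the 16 rats in their 4 groups. The enteric neuron and contraction control lists are not drawn. The members are high in rats 25 (1.86), 26 (2.45) and 16 (1.18), while the squamous list separates rat 26 (-3.18) from the other DSS-treated rats.

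The genes outside the set most like the mean of the members over the 16 rats were ranked by Pearson r among 9969 named genes that were well above background on all 16 arrays. The 10 highest were Mustn1 (r = 0.885), Fbxl22 (0.879), Alas2 (0.858), Sparcl1 (0.852), E2f6 (0.847), Hbe2 (0.840), Hbb-b1 (0.840), Ahsp (0.838), Hba-a1 (0.834) and Psap (0.831). Mustn1 had levels of -2.40, -3.05 and -2.93 in rats 26, 25 and 16 and lay between -4.83 and -3.63 in the other 13 rats. Fbxl22, an F-box protein of muscle, had -1.75, -2.56 and -2.63 in these rats and -3.69 to -2.96 in the others. For these 2 of the 10 genes alone the 3 rats were above the other 13.

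Globin chains (Hbe2, Hbb-b1 and Hba-a1), the globin chaperone Ahsp and Alas2, which begins haem synthesis in red cell precursors, make up 5 of the 10 genes. Hbb-b1 was at 6.34, 5.38 and 5.21 in rats 26, 25 and 16 and from 0.32 to 5.66 in the other 13. Alas2 was at -0.29, -1.72 and -1.36 and from -5.46 to -1.07 in the others. In each of these 5 genes the highest of the other 13 rats was above rats 25 and 16, and their part in the member levels was not tested. These correlations are descriptions over 16 rats that include 3 extreme values, and their place was picked out of many genes.

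Many smooth muscle genes carry in their promoters the CArG box, the site of serum response factor, which is CC, then 6 bases that are each A or T, then GG. RefSeq promoters on the GRCr8 build, from 250 bases before to 50 after the start of the gene, were available for 6 of the 10 members (Acta2, Actg2, Cnn1, Des, Mylk and Synpo2). An exact CArG box on either strand was found in 0 of these 6 windows and in 1.64% of all 33469 windows. With 1 of the inner 6 bases allowed to be C or G, a search chosen after the exact one and run on the 250 bases before the start, a match was found in Acta2 alone, and in 6.84% of all promoters. The 250 bases before Acta2, at chr1:241172504-241172753 on the minus strand, are shown since they hold these 2 matches, given in capitals, which start 134 and 84 bases before the start of the gene.
Acta2: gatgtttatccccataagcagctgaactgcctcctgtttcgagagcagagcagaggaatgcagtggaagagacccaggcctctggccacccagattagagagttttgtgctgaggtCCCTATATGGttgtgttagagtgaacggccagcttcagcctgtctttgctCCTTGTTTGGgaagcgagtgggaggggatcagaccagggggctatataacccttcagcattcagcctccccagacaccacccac
A match describes the sequence and is not evidence of binding, and the absence of one concerns only these letters in these windows.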

How the data were processed

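The authors deposited scanner output of 16 Agilent arrays from Feature Extraction 10.7.3.1, which holds a background-subtracted intensity per spot, not normalized between arrays, and other values, per the file headers flags of 0 or 1. Partek, named by the submitters, was not applied to these files. The log2 intensity minus the log2 of the 75th percentile of the array (875 to 2194) was the level of a spot, and the spots of each probe were averaged without outlier spots. The test was limma 3.58.1 under R 4.3.3 (lmFit, eBayes, 4 group means) in 7 comparisons with Benjamini-Hochberg adjustment over 30367 probes. The procedure was also run on simulated data with independent probes and the same spread in every group. Those data held no rats that stand apart, so the run does not bear on the uneven spread of the members. Each of 2 slides held 2 rats of every group, and each group lay in 1 array column, so an effect of column cannot be told apart from one of group.

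The members and lists were chosen with earlier results of these data known. Members are always named. From other lists up to 4 rises and 4 falls per comparison could be named, the largest that passed and were well above background on all arrays of a compared group; other genes named from lists were picked after their values were seen. Likeness genes are the 10 of highest r. Alternatives were other normalizations, a filter, a floor, blocks, averaged probes and left-out rats. With the common floor, probes without variance were offset by limma.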

Additional observations from a re-analysis of the deposited data

Results flagged for a closer look

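In 6 of 36 groups of 4 rats, 1 rat lay far from the other 3 for a member's level, where chance alone would give about 1 in 20 groups, or 1.8. Rat 25 accounts for 4 of these in untreated wild type rats, being the highest in each. Its Acta2 level was -1.34, with the others at -1.86, -1.84 and -1.94, and its Cnn1 level was -5.40, with the others at -8.51, -8.74 and -8.91. Its Tagln level was -1.61 against -6.91, -7.38 and -6.74, and its Myl9 level was -1.16 against -3.78, -3.51 and -3.83. Rat 26 had a Cnn1 level of -4.47, with the other DSS-treated wild type rats at -8.31, -7.83 and -8.25. In Lmod1, which was well above background on 0 arrays, rat 23 had -7.82 against -9.31, -9.12 and -9.27 in the other untreated Pirc rats. These groups share rats and the genes move together among rats, so the 6 are not independent. No cause was tested, and no member passed the test of a difference between the DSS effects of the genotypes.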

How the results depend on the processing

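Of 626 values for 22 member differences under all alternatives, 579 kept their sign and side of the threshold, 25 no longer passed, 20 newly passed and 2 changed sign. Among these 22, the reversed one is Actg2 between Pirc and wild type rats over both treatments, -1.11, which became 0.62 on slide 1 alone and 0.15 without rats 25 and 26 (-1.52 to -0.48 with each rat left out). Member differences outside the 22 were not counted, and some of them changed sign too, such as Actg2 between DSS-treated Pirc and wild type rats, -0.45, which became 1.04 on slide 1 alone and 0.80 without rats 25 and 26. For genes that could be named from other lists, 137 of 1028 values no longer passed and 0 changed sign. The runs without rats 25 and 26, without rats 16, 25 and 26 and with a common floor, and the medians without Cnn1 and Lmod1, were chosen after seeing the data.

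The number of members passing with DSS in Pirc rats, 1, became 2 with the compared groups only, with the filter on dim probes, with normexp and without rats 16, 25 and 26, 3 without rats 25 and 26 and 0 on slide 2 alone, and was 1 to 2 with each rat left out (2 without rat 23, 24, 25 or 26). With DSS in wild type rats, 0 became 1 without rats 25 and 26 and 1 without rats 16, 25 and 26, and was 0 to 1 with each rat left out (1 without rat 26). With DSS over both genotypes, 2 became 1 with the common floor, normexp, quantile normalization and slide as a block, 0 on slide 2 alone, 4 without rats 25 and 26 and 4 without rats 16, 25 and 26, and was 1 to 2 with each rat left out. Between DSS-treated Pirc and wild type rats, 1 became 0 on slide 1 alone and 0 on slide 2 alone, and was 1 to 2 with each rat left out (2 without rat 14). Over both treatments, 1 became 0 on each slide alone and was 1 to 2 with each rat left out (2 without rat 13, 14 or 16). The median difference between DSS-treated Pirc and wild type rats was -0.45 over the 7 members other than Cnn1 and Lmod1, 0.09 on slide 1 alone and -1.51 on slide 2 alone. Of all 30367 probes, 5234 passed with DSS over both genotypes, 4947 without rats 25 and 26, 4860 without rats 16, 25 and 26 and 520 on slide 2 alone, and 4451, 4534, 4143 and 371 in Pirc rats. In wild type rats 1165, 1173 and 1351 passed with all rats and without these 2 and 3. Between DSS-treated genotypes 5537 passed, with 310 and 114 on slides 1 and 2 alone, and 5324, 12 and 80 over both treatments. With normexp 5809 probes passed with DSS in Pirc rats and 6518 over both genotypes. The filter gave 4984 of 22759 probes with DSS in Pirc rats. With DSS over both genotypes 4775 passed with the common floor, 6401 with quantile normalization and 5403 with slide as a block. Normexp, run on the median foreground signal, changes the signal as well as its background correction. A slide alone has 2 rats per group and the filter tests fewer probes. Beyond that, the cause was not tested.

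With each rat left out the median over these 7 members ranged from 0.50 to 1.03 with DSS in Pirc rats, 0.07 to 1.20 in wild type rats, 0.32 to 0.99 over both genotypes, -0.71 to -0.31 between untreated genotypes, -1.26 to -0.13 between DSS-treated genotypes, -0.99 to -0.48 over both treatments and -0.32 to 0.93 for the difference of DSS effects. The medians over all 9 members, kept with the tables, can be the value of a probe near background. With the compared groups only, 2523 and 524 probes passed with DSS in Pirc and wild type rats and 2127 between DSS-treated genotypes, against 4451, 1165 and 5537 with all groups. For the difference of DSS effects 13 probes passed as processed here, 56 with normexp and 30 with the common floor. Signal near background limits Cnn1, Lmod1 and the untreated values of Tagln.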
